A study of Mus musculus with 3 samples.

Results

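The comparison described here set male gonads of mouse embryos lacking both Nanos2 and Stra8 against male gonads heterozygous for both genes. It used 2 of the 3 columns of the series: the column with genotype Nanos2-/- Stra8-/- and the column with genotype Nanos2+/- Stra8+/-, below double-null and control gonads. The remaining column, Nanos2-/- Stra8+/-, below Nanos2-null gonads, is given beside them to show how a gene stood when 1 working copy of Stra8 was left. All embryos were at E14.5 (embryonic day), and all gonads were male by their labels. RNA came from whole gonads, was amplified and labelled with the dye Cy3, and was hybridised to Agilent single-colour arrays with 41174 gene probes. Each genotype is represented by 1 column, which the titles tie to replicates 1 and 2, so no difference below has an error or a test. What can be checked is whether all probes of a gene differed alike. The number of embryos pooled, the strain and the deleted parts of both genes are not given in the sources used here.

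NANOS2 is an RNA-binding protein of fetal male germ cells that works with the CCR4-NOT deadenylase to shut down target mRNAs. It keeps male germ cells out of meiosis and is needed for the male programme of DNA methylation and transposon silencing. STRA8 is induced by retinoic acid and drives germ cells into meiosis, normally in the ovary at this stage. Germ cells of Nanos2-null testes switch on Stra8, and the combined mutant asks what Nanos2 loss does when that route is closed.

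Of 26 male germline silencing genes, 4 were at least 2-fold lower in double-null than in control gonads and 0 higher. Early oocyte genes had 6 of 25 higher and 2 lower. Pluripotency genes had 5 of 18 higher, and Nodal and Activin genes 3 of 17. Wnt genes had 4 of 48 higher and 1 lower, FGF genes 1 of 33 higher, and BMP and TGF-beta genes 0 of 33. Background shares were 4.24% upward and 2.82% downward, or 6.12% and 3.98% for genes with 1 probe. Most members past 2-fold had 1 probe, and the lists were drawn up with earlier results known, so these counts support no theme. Dnmt3l, the cofactor of germline DNA methyltransferases, was by its single probe 7.70-fold lower as deposited and 4.60-fold lower after quantile normalization. Gtsf1, a piRNA pathway protein, was lower by both of its probes. Lhx8, a transcription factor of young oocytes, was 9.41-fold higher by the median of 2 probes as deposited, and 5.06-fold higher with values below the negative control raised to it. Of the meiotic genes, Terb1, Terb2 and Sycp1 were higher by 1 probe each, while Sycp2 was lower by the median of 3 probes. Recombination genes had a median of 0.16, near the 0.19 of all genes. The early oocyte list was mixed, with Padi6 and Nlrp4f lower by over 4-fold. In whole-gonad RNA, fewer cells of a type and less RNA per cell cannot be told apart.

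The targeted genes were read first. The single probe of Nanos2 read 0.397, as deposited, in double-null gonads, 0.364 in Nanos2-null gonads and 87.2 in control gonads. Both mutant values lay inside the range that holds most of the dimmest probes, described below. Signal over background is unknown for this probe, so the log2 difference of -7.78 gives a direction and no exact size. The single probe of Stra8 had 1.34 in double-null gonads, 1.13 in Nanos2-null gonads and 0.108 in control gonads. Stra8 RNA was thus higher in double-null gonads, which should lack Stra8, by a probe whose place relative to the deletion is not known here. Its control value was lower than that of the negative control probe, 0.352. The log2 difference of 3.63 was 1.92 with values raised to the negative control. Values are relative to each probe, so 0.352 is no measured floor for Stra8. Signal over background is unknown, and 3.63 gives no exact size. The Stra8-/- label therefore has no check in these data, and every direction drawn from the column rests on it.

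**Figure D1:**
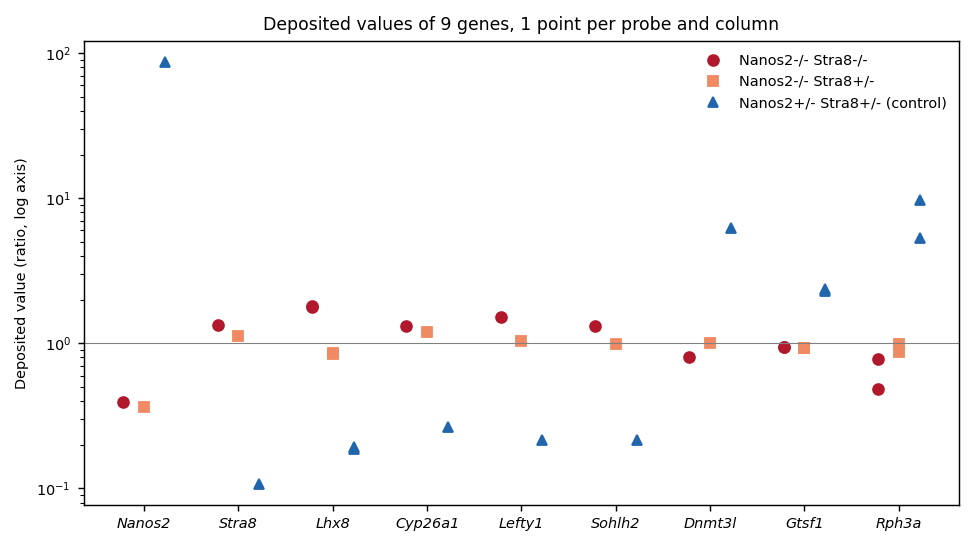
Deposited values (ratio, log axis) of 9 genes in double-null, Nanos2-null and control gonads, with 1 point per probe. Nanos2, Dnmt3l, Gtsf1 and Rph3a stand highest in control gonads, and Stra8, Lhx8, Cyp26a1, Lefty1 and Sohlh2 stand lowest there.

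Deposited values lie near 1 for most probes, as if each had been divided by its own middle value, so values of different genes cannot be set against each other as levels. A class of 7552 probes, 18.3% of all, lay below 0.7 in all 3 columns. Leaving out the lowest and highest few percent, it ran from 0.322 to 0.581 in double-null gonads and from 0.244 to 0.565 in control gonads. The array's negative control probe lay in the same range, at 0.454 in double-null gonads and 0.352 in control gonads. As values are relative to each probe, raising values to it is a setting and no measured limit of detection. Olfactory receptor genes, which work in the nose, had 55.9% of their 953 probes in this class, against 0.758% of 132 probes of ribosomal protein genes. The probes of this class differed by a median of 0.37, close together, with 59.7% of them between 0.3 and 0.5. Other probes had a median of 0.13 and a wider spread, with an SD of 0.65. Over all 19532 genes the median log2 difference was 0.19, and the 10 positive control probes of the E1A type had a median of 0.09, from -0.01 to 0.50. A list is therefore read against 0.19 and not against 0. None of the 23 measured Sertoli cell genes, the supporting cells that define a testis, lay in the dim class with all of its probes.

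**Figure D2:**
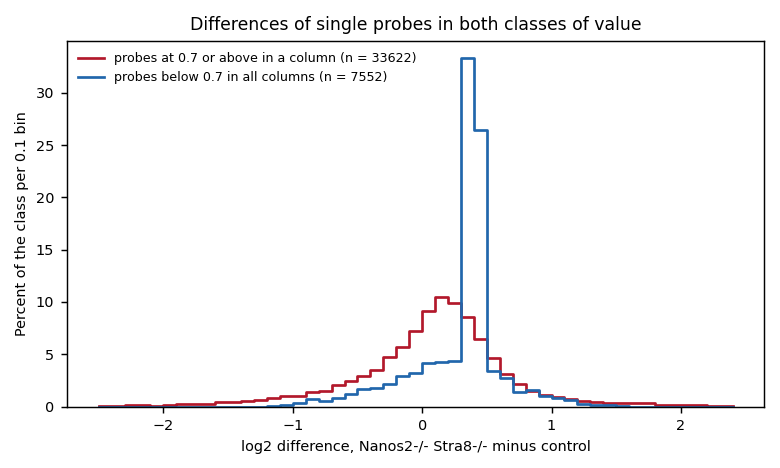
Log2 difference of single probes, double-null minus control, as the percent of each class per bin of 0.1. The 7552 probes below 0.7 in all columns form a narrow peak at a median of 0.37, while the other 33622 probes spread around 0.13.

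Agreement between probes was limited, and it set how single differences are read. Of 19532 genes, 8511 had 2 or more probes and 11021 had only 1. The range between the lowest and the highest probe of a gene had a median of 0.40 on the log2 scale and exceeded 1 in 18.8% of genes. Across the 5405 genes with exactly 2 probes the differences of both probes correlated with r = 0.31 and rho = 0.34. These are points across genes, the probes of a pair share both columns, and neither is a replicate. Among pairs with neither probe in the dim class r was 0.38 (4448 genes), and among pairs with both in it r was -0.05 (188 genes).

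When 1 probe of such a pair was at least 2-fold higher, its partner was also at least 2-fold higher in 76 of 394 cases, or 19.3%, against 3.64% of all probes in these pairs. When 1 probe was at least 2-fold lower, the partner was too in 88 of 348 cases, or 25.3%, against 3.22%. Of the partners that stayed short of 2-fold, 88 of 318 on the higher side and 69 of 260 on the lower side lay in the dim class, which held 10.6% of all probes in these pairs. A 2-fold difference of a gene with 1 probe carries no such check.

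**Figure D3:**
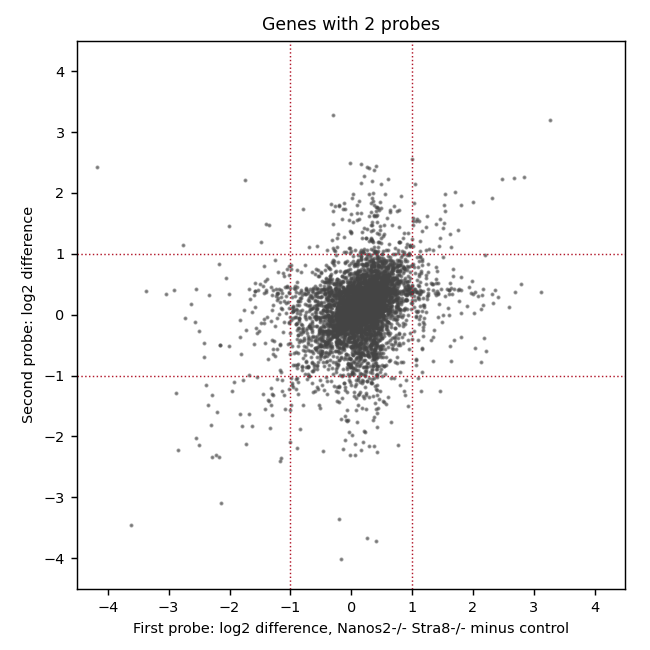
Log2 differences, double-null minus control, of the first and the second probe of 5405 genes with 2 probes, with dotted lines at 2-fold. Points along the arms have 1 probe past 2-fold and its partner near the middle, and 1 gene lies outside the axes.

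Every probe was at least 2-fold higher in double-null gonads for 46 genes, 0.54% of the 8511 genes with 2 or more probes. Every probe was at least 2-fold lower for 45 genes, 0.529% of them. Probes of olfactory and vomeronasal receptor genes passed 2-fold upward more often than others. Of olfactory receptor probes 17.3% were at least 2-fold higher, as were 14.6% of 144 vomeronasal receptor probes, against 1.52% of ribosomal protein probes and 5.17% of all probes outside the dim class. The nearest probe of Sez6 was just inside the limit at 1.0 and that of Fam78a just outside at 0.995. Of both groups together, 50.5% were higher, and 23.7% were higher once all differences were centred on the median probe. By the median of all probes of a gene, 828 of 19532 genes were at least 2-fold higher (4.24%) and 551 were lower (2.82%), so 60.0% of them were higher. After centring they were 549 (2.81%) and 786 (4.02%), so 41.1% were higher. Which direction holds more genes thus depends on how the columns are scaled. Of the genes called by every probe, 22 of the 46 higher and 27 of the 45 lower ones stayed called under each of 4 settings, namely centring, quantile normalization, a pseudocount of 0.1 and values raised to the negative control.

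Lhx8 had the largest difference among genes higher by every probe as deposited, at 3.23, and came after Prok2, 2.34 against 2.46, with values raised to the negative control. Its 2 probes had 1.77 and 1.80 in double-null gonads, 0.861 and 0.850 in Nanos2-null gonads, and 0.193 and 0.187 in control gonads. Both probes thus stood in the same order of columns, with the combined mutant highest and the control lowest. Cartpt, the precursor of a neuropeptide, had 1.80 and 1.79, then 0.857 and 0.835, then 0.386 and 0.323 in the same order of columns. Clic6, a member of the chloride intracellular channel family, was 5.84-fold higher than control, with probes at 2.26 and 2.83 on the log2 scale. Prok2, a secreted ligand of prokineticin receptors, had 2.75 and 3.37 in double-null gonads, 0.645 and 0.856 in Nanos2-null gonads, and 0.580 and 0.529 in control gonads. Nanos2-null gonads differed from control by only 0.15 and 0.70, and the combined mutant stood apart from both.

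Most of the next genes in order stood nearly as high in Nanos2-null gonads, Sez6 being the exception. Scrt1 and Sez6 were no longer called under centring, quantile normalization or the pseudocount. Kcng3, a voltage-gated potassium channel subunit, had 1.25 and 1.24 in double-null gonads, 0.988 and 1.0 in Nanos2-null gonads, and 0.329 and 0.248 in control gonads. St8sia3, a sialyltransferase, differed from control by 1.94, 1.76 and 3.26 by its 3 probes. Spic, an Ets-family factor, had a median difference of 1.93, and Tgtp1, an interferon-induced GTPase, one of 1.86. Prss50, a serine protease of the testis, had probes at 1.81 and 1.80. All control values of Kcng3, St8sia3, Spic, Tgtp1 and Prss50 lay below the negative control at 0.352. With values raised to it, their medians were 1.82, 1.69, 1.74, 1.58 and 1.65. Scrt1, a zinc finger repressor of neurons, had 3 probes from 1.02 to 1.96, and Gpr83, a G protein-coupled receptor, had 1.54 and 1.97. Sez6, a membrane protein of neurons, rested on unequal probes, at 2.55 and 1.0, and its Nanos2-null values of 0.282 and 0.992 lay near the control values of 0.269 and 0.767.

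Germ cell genes named through their lists were also among the 46. Taf7l, a TFIID subunit specific to germ cells, had 1.16 and 1.14 in double-null gonads and 0.356 and 0.392 in control gonads. Dppa5a, a marker of pluripotent and primordial germ cells, had 0.992 and 1.06, against 0.360 and 0.359 in control. Nanos1, a paralogue of Nanos2, had 1.42 and 1.38 in double-null gonads, 0.984 and 0.977 in Nanos2-null gonads, and 0.571 and 0.447 in control gonads. Nanos1 was thus higher than control by both probes while Nanos2 was lower. Cdk6, a kinase of the G1 phase, had 3 probes from 1.11 to 1.47, and Wnt3 had probes at 1.16 and 1.38. Lhx1, a homeobox factor of kidney and of early spermatogonia, had 1.12 and 1.53, and Fasl, a death receptor ligand, 1.54 and 1.07. Cdk6, Lhx1 and Fasl were no longer called under centring, quantile normalization or the pseudocount, and Wnt3 was no longer called under centring.

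**Figure D4:**
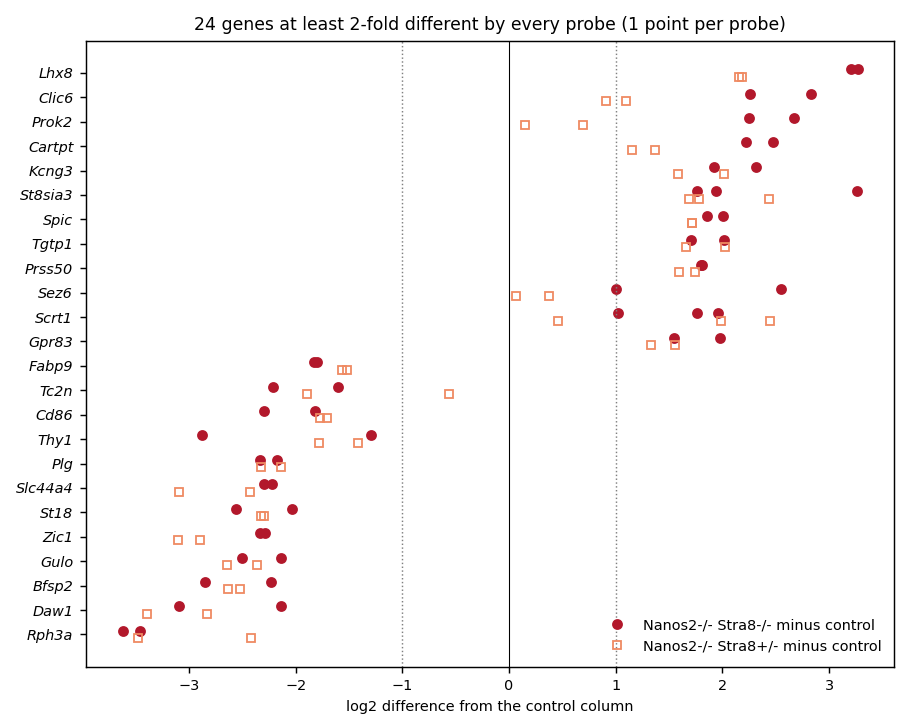
Log2 difference from control gonads for 12 higher and 12 lower genes, those with the largest difference by every probe among genes with an established symbol, 1 point per probe. Filled points are double-null gonads and open squares Nanos2-null gonads; both are set against the same control column.

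Among genes with an established symbol, Rph3a, an effector of vesicle release, was the lowest by every probe, and only Gm16404, at -3.82, was lower without one. It had 0.482 and 0.786 in double-null gonads, 0.994 and 0.869 in Nanos2-null gonads, and 5.30 and 9.67 in control gonads. Its difference was -3.54 as deposited and -2.78 after quantile normalization. Daw1, a factor for assembly of dynein arms in cilia, had 0.362 and 0.410, then 0.294 and 0.254, then 3.08 and 1.80. Its double-null values lay within the range of the dimmest probes. Bfsp2, a lens intermediate filament protein, was 5.82-fold lower by the median, and Gulo, the last enzyme of vitamin C synthesis, 5.01-fold lower, and both folds were smaller after quantile normalization, at 3.69 and 3.33. Zic1, a zinc finger factor of the neural tube, had 0.986 and 0.854 in double-null gonads, 0.561 and 0.579 in Nanos2-null gonads, and 4.81 and 4.30 in control gonads. Its difference of -2.31 was -1.72 after quantile normalization. St18, a zinc finger factor, Slc44a4, a transporter of the choline-like family, and Plg, which encodes plasminogen, had medians of -2.29, -2.26 and -2.25.

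Further down, Thy1, a surface glycoprotein used to mark spermatogonia, had unequal probes at -2.88 and -1.29. Cd86, a costimulatory molecule of antigen-presenting cells, had -2.30 and -1.82, and Tc2n had -2.21 and -1.60. Fabp9, a fatty acid binding protein of the testis, had 0.803 and 0.851 in double-null gonads, 0.997 and 1.0 in Nanos2-null gonads, and 2.86 and 2.96 in control gonads. Several lower genes encode parts or helpers of motile cilia and flagella, and these were picked after their values were seen. Cfap206 had probes at -1.95 and -1.26, Dynlrb2 at -1.55 and -1.10, and Dnajb13 at -1.55 and -1.42. Mak, a kinase of germ cells and photoreceptor cilia, had -1.0 and -2.09. Cfap206, Dynlrb2 and Mak were no longer called after quantile normalization. The fixed list of ciliary axoneme genes did not lie low as a whole. It had a median of 0.15 over 29 genes, with 3 at least 2-fold lower and 0 higher. Those were Dnah8, whose 3 probes ran from -1.49 to 0.41, Spag17 at -1.29 and Tekt1 at -1.09. Spag17 was no longer called by every probe after quantile normalization, where Tekt1 also came short of 2-fold, as Dnah8 did by the mean of its probes.

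The Nanos2-null column stood near the combined mutant for most of these genes, although both are set against the same control column. For the 45 lower genes the median difference between the combined mutant and Nanos2-null gonads, which leaves the control out, was -0.001, and 32 of them lay within 0.5 of 0. None of them was at least 2-fold different by every probe between both mutant columns. For the 46 higher genes that median was 0.27, with 30 within 0.5 of 0. The share of all genes within 0.5 was not counted, so neither count sets the called genes apart from others. By every probe 7 of the 46 were at least 2-fold higher in the combined mutant than in Nanos2-null gonads, and 0 lower. Over all 8511 genes with 2 or more probes these counts were 8 (0.094%) and 3 (0.0352%). The 46 were chosen for high double-null values, which favours this direction. The 7 were Lhx8, Clic6, Prok2, Cartpt, Elmod1, Mdfi and Cd300lg, the last 3 named after their values were seen. Mdfi, an inhibitor of myogenic factors, had 2.03 and 2.10 in double-null gonads, 0.934 and 0.939 in Nanos2-null gonads, and 0.927 and 0.905 in control gonads. Elmod1 had 1.15 and 1.37, then 0.506 and 0.488, then 0.490 and 0.505. For Mdfi and Elmod1 Nanos2-null and control gonads thus lay together, apart from the combined mutant.

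Genes with a single probe gave the largest differences as deposited. Among those with an established symbol, the higher ones beside Stra8 were Ptf1a, a pancreatic and neural bHLH factor, whose difference was 3.91 on the log2 scale, and Nkx1-1 at 3.83, Wnt8a at 3.49 and Pax9 at 3.20. Ptf1a had 1.48 in double-null gonads, 0.935 in Nanos2-null gonads and 0.0989 in control gonads, the lowest control value of any probe. With values raised to the negative control, Ptf1a was at 2.07, Nkx1-1 at 2.74, Wnt8a at 1.95 and Pax9 at 3.19. Sizes and order of these genes thus depended on how low control values were treated. Lower beside Nanos2 were Apoc2, an activator of lipoprotein lipase, at -5.85, Clca1 at -5.61, Oas1d, a 2'-5' oligoadenylate synthetase-like gene of the ovary, at -5.09, and Snorc at -4.35. Apoc2 had 0.989 in double-null gonads, 0.820 in Nanos2-null gonads and 56.9 in control gonads. After quantile normalization these 4 genes were at -4.59, -4.35, -3.82 and -3.24. Among the 11021 genes with 1 probe, 674 were at least 2-fold higher (6.12%) and 439 lower (3.98%), against the 4.24% and 2.82% of all genes.

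Promoter windows from RefSeq, 250 bases before to 50 after each gene's start on GRCm38.p6, are shown for 3 genes that were higher and 2 that were lower. Windows of 32851 starts were searched on both strands for 6 motifs. Capitals mark matches to CNCCTCAG (the motif bound by STRA8), TCCCGC (an E2F motif), CACGTG (an E-box), and the direct repeat read by retinoic acid receptors, which is a pair of sites, each any of 4 variants, spaced by 5 bases (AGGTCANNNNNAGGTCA is one such repeat). The other motifs were the X-box of RFX factors and the cyclic AMP element, TGACGTCA, neither of which occurs below. Marked matches do not overlap, and CACGTG reads the same on both strands. Dnmt3l has 3 windows, and the one shown was picked for its matches.
Cyp26a1, chr19:37697558-37697857, plus strand: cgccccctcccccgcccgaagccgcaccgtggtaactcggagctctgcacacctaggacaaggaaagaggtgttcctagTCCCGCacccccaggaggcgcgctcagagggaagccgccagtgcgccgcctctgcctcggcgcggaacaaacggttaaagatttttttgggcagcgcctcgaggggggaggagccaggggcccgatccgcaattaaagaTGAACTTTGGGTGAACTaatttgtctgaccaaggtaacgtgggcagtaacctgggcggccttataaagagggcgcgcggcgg
Stra8, chr6:34920698-34920997, plus strand: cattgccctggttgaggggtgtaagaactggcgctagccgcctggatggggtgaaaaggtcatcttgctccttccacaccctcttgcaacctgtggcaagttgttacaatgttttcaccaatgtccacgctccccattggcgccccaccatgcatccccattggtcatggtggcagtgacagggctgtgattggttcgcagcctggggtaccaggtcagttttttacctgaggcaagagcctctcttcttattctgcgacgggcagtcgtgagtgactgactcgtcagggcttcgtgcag
Lhx8, chr3:154330511-154330810, minus strand: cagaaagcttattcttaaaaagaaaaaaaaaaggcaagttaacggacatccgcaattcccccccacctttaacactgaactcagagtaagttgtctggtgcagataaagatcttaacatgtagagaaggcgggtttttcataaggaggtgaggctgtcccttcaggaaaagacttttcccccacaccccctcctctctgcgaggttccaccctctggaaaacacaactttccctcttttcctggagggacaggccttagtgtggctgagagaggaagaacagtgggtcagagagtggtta
Dnmt3l, chr10:78049592-78049891, plus strand: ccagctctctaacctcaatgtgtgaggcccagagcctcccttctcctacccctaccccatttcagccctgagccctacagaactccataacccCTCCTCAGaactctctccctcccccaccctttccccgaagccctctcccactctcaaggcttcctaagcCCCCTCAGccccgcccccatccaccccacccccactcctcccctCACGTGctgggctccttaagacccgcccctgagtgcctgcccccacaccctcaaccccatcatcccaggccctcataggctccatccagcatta
Gtsf1, chr15:103430378-103430677, minus strand: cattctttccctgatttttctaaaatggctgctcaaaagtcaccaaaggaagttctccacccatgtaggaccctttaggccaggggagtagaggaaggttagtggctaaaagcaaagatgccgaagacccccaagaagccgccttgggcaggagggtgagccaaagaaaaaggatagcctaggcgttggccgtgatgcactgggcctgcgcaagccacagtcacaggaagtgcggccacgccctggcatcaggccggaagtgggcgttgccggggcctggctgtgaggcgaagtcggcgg
In Cyp26a1, whose enzyme degrades retinoic acid, the direct repeat starts at position -32 from the gene's start and reads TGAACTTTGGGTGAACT on the gene's strand. Only 32 of 32851 windows held such a repeat, or 0.0974%. The Dnmt3l window held CNCCTCAG at positions -157 and -88 from the start and CACGTG at position -44. No searched motif occurred in the windows of Stra8, Lhx8 and Gtsf1. Direct repeats with a spacing other than 5 bases, and bases outside these windows, were not searched.

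Among genes called by every probe, 33 higher and 31 lower ones had a window, and a gene with several windows counted as holding a motif when any of them did. CNCCTCAG occurred in 12.1% of the higher and 25.8% of the lower genes, and in 11.1% of 6871 genes with 2 or more probes. TCCCGC occurred in 21.2% of the higher genes and 9.68% of the lower ones, against 38.6% of genes with 2 or more probes. CACGTG occurred in 9.09% and 16.1%, against 11.3%. TGACGTCA occurred in 3.03% of the higher genes, Cartpt alone, and in 0% of the lower ones, against 3.77%. Neither the direct repeat nor the X-box occurred in a window of either set, and they were rare in all windows, at 0.0974% and 0.298%. A match describes letters in a window and no binding.

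The fixed lists held 817 measured genes in 40 groups, and 57 of these genes were at least 2-fold higher by their median (6.98%, against 4.24% of all genes) and 28 lower (3.43%, against 2.82%). Members and lists were chosen with earlier results of these data known, so these shares are no support for any of them. Each count at 2-fold in the lists below stands against the 4.24% and 2.82% of all genes. For genes with 1 probe these shares were 6.12% and 3.98%. Of 365 members with 2 or more probes, 8 were higher and 3 lower by every probe. Over all 8511 genes with 2 or more probes these counts were 46 (0.54%) and 45 (0.529%).

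Genes of male germline DNA methylation and the piRNA pathway had the lowest median of the 40 lists, -0.22 over 26 genes against 0.19 for all genes. Of these, 4 were at least 2-fold lower and 0 higher. Dnmt3l had 0.810 in double-null gonads, 1.0 in Nanos2-null gonads and 6.24 in control gonads. Piwil1, a PIWI protein known best from pachytene spermatocytes, had 0.771, 0.876 and 3.38 in the same order, and Tdrd9, a helicase of the piRNA pathway, 0.906, 0.869 and 2.72. Gtsf1 had 0.947 and 0.946 in double-null gonads, 0.936 and 0.926 in Nanos2-null gonads, and 2.31 and 2.37 in control gonads. Both mutant columns lay together below the control for each of the 4 genes. Of these, Dnmt3l, Piwil1 and Tdrd9 rested on 1 probe each. The 23 genes of germ cell identity had a median of 0.24, near the 0.19 of all genes. What part differing numbers of germ cells had was not tested.

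Genes of RNA regulation around NANOS2 showed few large differences other than Nanos2 and Nanos1. The 24 genes of the CCR4-NOT complex and of P-bodies, where NANOS2 acts, ran from -0.55 for Cnot11 to 0.45 for Lsm14a, with a median of 0.02. The 22 germline RNA regulators had a median of 0.14, and Cpeb1 at 0.87 and Elavl2 at 0.77 followed Nanos1.

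Chromosome structure genes of meiosis had the highest list median, 0.51 over 19 genes, with 4 of them 2-fold higher or more and 1 lower. Stra8 itself was 1 of the 4, and each of the 4 rested on 1 probe. Terb1 and Terb2, partners that tether telomeres to the nuclear envelope, had differences of 1.6 and 1.37. Terb1 had 1.69 in double-null gonads, 1.54 in Nanos2-null gonads and 0.559 in control gonads. Sycp1, which spans the synaptonemal complex, had 1.02, 1.13 and 0.419 in the same order. Sycp2, a protein of the chromosome axis, went the other way, with probes at -0.27, -1.08 and -1.24. Its last 2 probes had 0.602 and 0.527 in double-null gonads, 0.986 and 0.996 in Nanos2-null gonads, and 1.27 and 1.24 in control gonads. Sycp2 came short of 2-fold in 4 settings, down to -0.27 by the probe with the highest mean value.

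Recombination genes lay near all genes, with a median of 0.16 over 25 genes, 2 at least 2-fold higher and 0 lower. Mcmdc2, a factor for repair of meiotic breaks, had 1.08 in double-null gonads, 1.20 in Nanos2-null gonads and 0.315 in control gonads, by 1 probe. Its difference of 1.78 was 1.62 with values raised to the negative control. Cntd1, a cyclin-like factor for crossovers, had unequal probes at 2.24 and 0.61, and only the first passed 2-fold. Tex15 had a difference of -0.97 and Meiob one of 0.73.

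Pluripotency genes had a median of 0.49 over 18 genes, of which 5 were 2-fold higher or more and 0 lower. They were Gdf3 at 1.57, Dppa5a at 1.51, Tdgf1 at 1.51, Sox2 at 1.33 and Nanog at 1.20. All but Dppa5a rested on 1 probe. Gdf3, a TGF-beta family ligand, had 1.15 in double-null gonads, 1.10 in Nanos2-null gonads and 0.389 in control gonads. Tdgf1, the Nodal co-receptor, had 2.09, 0.890 and 0.735 in that order, so Nanos2-null gonads lay nearer the control for this gene. Of 17 Nodal and Activin genes, 3 were at least 2-fold higher, namely Gdf3, Tdgf1 and Lefty1, each with 1 probe. Lefty1, a secreted Nodal inhibitor, had 1.52, 1.04 and 0.215 in the same order, a difference of 2.81 that was 2.10 with values raised to the negative control. The list median was 0.29. Nodal itself had a difference of 0.60.

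Retinoic acid genes had a median of 0.23 over 20 genes, with 3 at least 2-fold higher, each by 1 probe, and 0 lower. Cyp26a1 had 1.32 in double-null gonads, 1.20 in Nanos2-null gonads and 0.263 in control gonads. Its difference of 2.32 was 1.90 with values raised to the negative control. Hoxb1, a classic retinoic acid target, had 1.51, 1.20 and 0.452, and Stra8 was the remaining member. Rdh10, which makes retinal, had probes at 0.80 and 0.91.

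Early oocyte and maternal genes were split, with 6 of 25 at least 2-fold higher and 2 lower and a median of 0.10. Beside Lhx8, Sohlh2, another transcription factor of young oocytes, had 1.31 in double-null gonads, 0.998 in Nanos2-null gonads and 0.215 in control gonads, a difference of 2.62 that was 1.90 with values raised to the negative control. Figla, which turns on zona pellucida genes, had 1.5, 0.929 and 0.558. Ooep, Nlrp5 and Khdc3, members of the maternal complex of the egg cortex, had differences of 2.12, 1.84 and 1.10, of which Khdc3 came short of 2-fold after centring. Ooep was at 1.58 with values raised to the negative control. Padi6, a further member of that complex, went the other way with 0.799, 0.808 and 3.80, as did Nlrp4f at -2.17. All members of this list outside Lhx8 that reached 2-fold rested on 1 probe.

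Spermatogonial and later male germ cell genes had a median of 0.42 over 25 genes, with 7 at least 2-fold higher and 2 lower. The median was 0.14 after quantile normalization, against 0.04 for all genes, and 3 members had only probes of the dim class. Ret, the receptor for GDNF, had 2.63 in double-null gonads, 1.53 in Nanos2-null gonads and 0.369 in control gonads. Neurog3, a bHLH factor of differentiating spermatogonia, had a difference of 2.11 and Dmrt1 one of 1.21, and Cdh1, Lhx1, Adam3 at 1.61 and Prm2 at 1.17 made up the rest, Prm2 short of 2-fold after centring. With values raised to the negative control, Neurog3 was at 1.79. Pgk2 and Ldhc, glycolytic enzymes of spermatocytes and sperm, were lower, at -2.26 and -1.79. Apart from Lhx1, the members of this list at 2-fold rested on 1 probe each. Of germ cell identity genes, Alpl at 1.17 and Prdm1 at 1.09 reached 2-fold with Taf7l, though Alpl and Prdm1 did not after centring, and 0 of 23 were 2-fold lower. A list of Rhox and other germline genes, 22 of 24 on the X chromosome in RefSeq, had a median of -0.15, or -0.18 without the autosomal Sycp3 and Zfp42, and Tex16 was at 1.28.

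Cell cycle and death genes gave single members. Cdk6 was the only 1 of 25 cell cycle genes at 2-fold, near the 4.24% of all genes that were higher. The list median of 0.19 equalled that of all genes. Cdkn2a, which encodes p16 and ARF, had by its single probe 0.384 in double-null gonads, 0.999 in Nanos2-null gonads and 1.26 in control gonads. Its difference of -1.71 was -1.47 with values raised to the negative control. Cdkn2a was the only 1 of 11 CDK inhibitor and retinoblastoma genes at 2-fold, and Rb1 followed at 0.98, with probes at 0.96 and 1.0. Of 18 genes of the p53, Bcl2 and caspase families, Pmaip1 at 1.31 and Fasl at 1.30 were higher and 0 lower.

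Lists of somatic markers differed in how many members reached 2-fold. Of 23 Sertoli cell genes, Dmrt1, which germ cells also express, was the only one, near the 4.24% of all genes that were higher. The list median was 0.14. No gene reached 2-fold among 14 fetal Leydig cell genes (median -0.09), 15 endothelial genes (median 0.00), 14 macrophage genes (median 0.17) or 11 erythroid genes (median 0.28). Leydig cell genes lay 0.28 below the median of all genes, with Hsd17b3, a testosterone-forming enzyme, at -0.97 and Star at -0.28. Of 18 pre-granulosa and ovary genes, Gng13 at 1.57, Msx1 at 1.27 and Rspo1 at 1.11 were higher and Fbln2, at -1.01, lower, with a median of 0.14. Rspo1 and Fbln2 came short of 2-fold after quantile normalization, and Msx1 by the probe with the higher mean value. Mesenchymal genes had a median of 0.18 over 18 genes, with Dcn at 1.02 from probes at 0.41 and 1.62, and short of 2-fold after centring. Neural genes had a median of 0.09 over 14 genes, with Foxd3 at 1.22.

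Mesonephros and epithelial genes had a median of 0.35 over 16 genes, from -0.35 to 2.83, with Ret, Cdh1 at 1.33 and Lhx1 at least 2-fold higher and 0 lower. These 3 genes stand in the list of spermatogonial genes too. What part differing amounts of mesonephros or other tissue had in any result was not tested.

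Developmental signalling lists held isolated members past 2-fold. Of 48 Wnt genes, Wnt8a, Sfrp2 at 1.63, Wnt3 and Rspo1 were higher and Wnt3a, at -1.38, was lower, with a median of 0.31. Of 33 FGF genes only Fgf20, at 1.59, passed, no more than the 4.24% of all genes that were higher. Of 33 BMP and TGF-beta genes none did. The FGF list and the BMP and TGF-beta list had medians of 0.26 and 0.21. Hox genes had a median of 0.27 over 37 genes, with Hoxd12 at 1.87, Hoxb1 at 1.74 and Hoxb13 at 1.45. Hoxd12 and Fgf20, with 1 probe each, were also higher than in Nanos2-null gonads, by 1.08 and 1.17. The difference of Fgf20 from control was 1.28 with values raised to the negative control. None of 31 polycomb and chromatin genes, 17 cholesterol genes, 20 glycolysis genes and 18 stress and immediate response genes passed 2-fold, and they had medians of 0.16, 0.08, 0.19 and 0.20.

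Interferon-inducible genes differed in both directions. Oas1d, Oas3 and Oas1a, of the oligoadenylate synthetase family, were at -5.09, -1.76 and -1.51, while Oasl2 was at 1.21 and Gbp3 at 1.09, and the median of 24 genes was -0.03. Gbp3 came short of 2-fold after centring, and Oas3 was no longer called after quantile normalization. Oas3 had 0.998 and 0.358 in double-null gonads, 0.543 and 0.441 in Nanos2-null gonads, and 2.22 and 1.84 in control gonads. Striated muscle genes were lower in 6 of 33 members and higher in 2, with a median of 0.07. The lower ones were Myl10 at -4.00, Myh2 at -1.97, Mybpc2 at -1.89, Tnnc2 at -1.53, Myl2 at -1.38 and Neb at -1.08. Myl10 was at -3.60 with values raised to the negative control. The higher ones were Myl1 at 1.29, from probes at 2.17 and 0.42, and Myod1 at 1.19. The 3 probes of Myh2 ran from -2.86 to -0.64, and Myl10, Mybpc2, Tnnc2, Myl2 and Myod1 rested on 1 probe each. The 6 probes of Neb ran from -3.21 to 0.20, and Neb came short of 2-fold after quantile normalization, as Myod1 did after centring. Of 19 apolipoprotein and lipid transport genes, Apoa4 at 1.92 and Apoa2 at 1.26 were higher, by 1.40 and 1.38 also against Nanos2-null gonads, while Apoc2 was lower. Of 30 imprinted genes, Ascl2 at 1.34 and Dio3 at 1.14 were higher and Peg10, at -1.14, lower, with a median of 0.13. Dio3 came short of 2-fold after centring and Peg10 after quantile normalization.

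The remaining lists were small. Of 11 genes of the 2-cell embryo, Duxbl1 at 1.34, Usp17lc at 1.20 and Tdpoz1 at 1.15 were higher and Usp17la, at -1.64, lower, with a median of 0.41. After quantile normalization the median was 0.12, against 0.04 for all genes, and 4 members had only probes of the dim class. The only probe of Usp17lc was in the dim class and was at 0.70 with values raised to the negative control. Tdpoz1 came short of 2-fold after centring, after quantile normalization and by the probe with the higher mean value. Among 9 GDNF family genes Ret alone passed 2-fold, and the median was 0.13. The 8 Y-linked genes had a median of 0.47, from -0.52 for Usp9y to 0.72 for Zfy1, and none reached 2-fold.

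**Figure D5:**
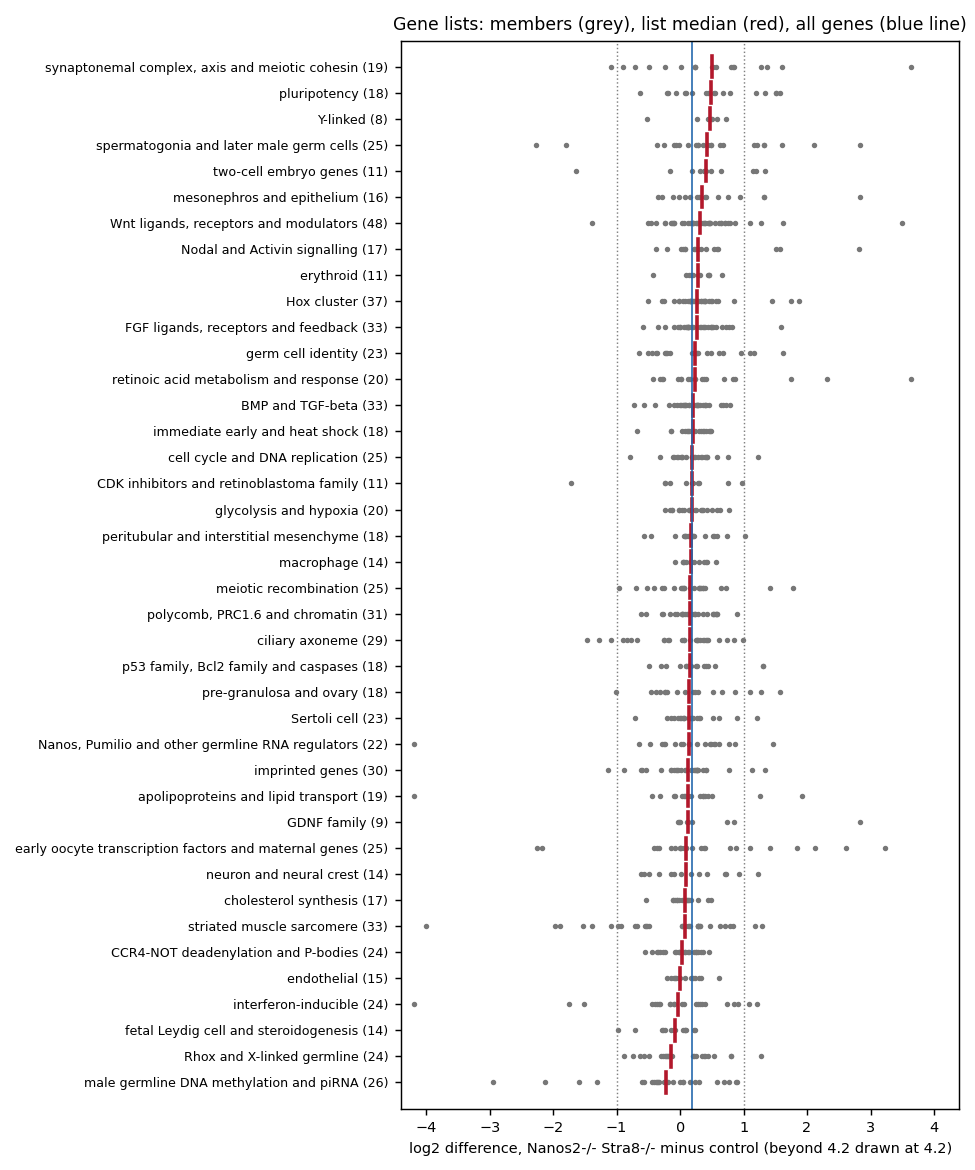
Log2 difference, double-null minus control, of the members of 40 gene lists (grey points, number measured in brackets), with the list median in red and the median of all genes, 0.19, as a blue line. The list medians run from -0.22 for male germline DNA methylation and piRNA genes to 0.51 for the synaptonemal complex, axis and meiotic cohesin genes, and most members lie within 2-fold (dotted lines).

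Genes that neighbour Nanos2 and Stra8 were read because the combined mutant is homozygous for both targeted regions. The 15 measured genes on each side of Nanos2 in RefSeq order had a median difference of 0.13, and those beside Stra8 one of 0.26. Both are near the 0.19 of all genes. Near Nanos2, Sycp1-ps1, a Sycp1 pseudogene, was at 1.22 and Ceacam13 at 1.01, while Foxa3, at -0.89, and Pglyrp1, at -0.89, were lowest. Sycp1-ps1 resembles Sycp1 in sequence by its name, so signal of both genes may not be separable. Near Stra8, 1700012A03Rik was at 1.16 and Svopl at 1.07. Slc23a4, the next gene after Stra8, had a difference of 0.43 from control and of -1.47 from Nanos2-null gonads. No neighbour was called by every one of 2 or more probes. These genes were given for their place and not by the rule for named genes.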

How the data were processed

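Per the labels' protocols, total RNA from frozen gonads was amplified and labelled with Cy3. The submitters' processing notes name Agilent Feature Extraction 9.5 for reading the arrays. The deposited values are linear ratios; no source used here gives how the authors normalised and combined arrays, and the account of divisors above was inferred from the values. Of 41267 entries, 93 control spots were left out. The platform annotation gave 1 symbol for 32664 of 41174 probes, several for 45 and none for 8465; 32524 probes matched RefSeq (GRCm38.p6) by gene identifier.

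Each probe's difference was log2 of the mutant ratio minus log2 of the control ratio, with no pseudocount, filter or scaling. A gene took the median of its probes. With 1 column per genotype there was no test; a gene was called when 2 or more probes all differed by at least 1 on the log2 scale in 1 direction. The number of arrays limits the precision. The counting steps were tested on simulated data. Named genes were Nanos2 and Stra8, the 12 largest every-probe calls and the 5 largest single-probe genes per direction with established symbols, and from each list the 4 largest and all at 2-fold; others are said to be chosen later or by place. Members and lists were chosen with earlier results of these data known. Python 3.11.15, numpy 2.4.6, pandas 2.3.3 and matplotlib 3.10.9 were used. Alternatives covered scaling, probe summary, dim probes, a pseudocount, a floor, the size limit and the number of probes.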

Additional observations from a re-analysis of the deposited data

Results flagged for a closer look

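Probes that the platform annotation does not name lay outside the comparison of genes, and some of them stood well above control gonads. The largest log2 differences upward, double-null minus control, were 3.845 for A_52_P1164335, 3.762 for A_52_P146986 and 3.444 for A_52_P293927. The first had 4.21 in double-null gonads, 0.268 in Nanos2-null gonads and 0.293 in control gonads, and the second had 3.21, 0.298 and 0.236. Both thus stood high in the combined mutant column alone. Their other values lay below the negative control probe, at 0.354 in Nanos2-null gonads and 0.352 in control gonads. The third had 2.60, 0.995 and 0.239, with its control value also below the negative control. Differences of like size ran the other way, at -3.89 for A_51_P103396, -3.71 for A_52_P835833 and -3.55 for A_51_P148587. A_52_P835833 and A_51_P148587 had 0.188 and 0.184 in double-null gonads, below the negative control at 0.454. Signal over background is unknown for these probes, so differences that rest on such low values have no exact size. Of 8510 probes without a single named gene, 498 were at least 2-fold higher (5.85%) and 522 lower (6.13%). Over all probes these shares were 5.17% and 5.34% outside the dim class, and 2.03% and 0.185% in it.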

How the results depend on the processing

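Scaling changed the balance of directions. Centring on the median probe left 22 genes higher by every probe and gave 71 lower, with 549 genes higher by the median. Quantile normalization gave 30 genes higher by every probe, all among the 46, and 36 lower, of which 29 were among the 45. A pseudocount of 0.1 gave 27 higher and 37 lower, all among those called. At 1.5-fold the counts were 233 higher and 120 lower by every probe and 2432 and 1226 by the median. At 3-fold they were 9 and 16, and 263 and 200. With 3 or more probes required, 8 genes were higher and 1 lower, since fewer genes could be tested. Leaving out the dim class, raising values to the negative control, and other probe summaries kept each count they apply to within 1.5 times. No named gene at 2-fold changed direction under any of these settings. Of 113 such genes, 19 came under 2-fold in at least 1 setting. The medians of 16 lists moved across the median of all genes in some setting; those of the male germline, synaptonemal, pluripotency, Rhox and Leydig lists did not. No paired analysis was possible because each genotype has 1 column. Signal over background is unknown, which limits the size of every difference with a low value on 1 side.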
